A study of Sus scrofa with 8 samples.

Results

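Basal cells are the stem and progenitor cells of the nasal lining. They sit on the basement membrane below the ciliated, secretory and sensory cells, they are held there by hemidesmosomes, and they divide to replace the cells above them. In the olfactory epithelium (OE) the horizontal basal cells are a quiescent reserve that is recruited after injury, and the transcription factor TP63 keeps them in that state. Respiratory mucosa carries basal cells with largely the same marker genes, so that these genes do not tell the 2 epithelia apart. The genes described here were chosen by name as markers or adhesion genes of basal cells: the keratins KRT5, KRT14 and KRT15, the transcription factor TP63, the neurotrophin receptor NGFR, and the adhesion genes ITGA6, ITGB4, LAMB3, COL17A1 and DST. Of the 10 genes listed, 8 matched an identifier among the 22516 genes of the files, and all 8 were among the 21318 genes tested. KRT5 and KRT14 matched no identifier through the name table and were not analysed here.

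The 8 libraries were made from the OE of 4 sows aged 8 months, crossbred from Landrace boars and Rongchang sows and all in estrus. In the androstenone treatment group, 2 sows received Boarmate, a spray whose main component is the boar pheromone androstenone, into the nasal cavity, and the tissue was taken 30 min later. The 2 sows of the control group received no spray of any kind, so that androstenone and the act of spraying cannot be told apart. Left and right OE of each sow gave separate libraries, 4 per group. The sources used here do not say which libraries share a sow. Each library was therefore taken as a replicate in spite of there being 2 animals per group, and the p-values are too small to that extent.

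In the deposited table the counts of control 1 summed to 4177968 and those of the other libraries to between 81579983 and 100685797. In control 4 the 10 most counted genes took 29.4% of all counts, against 6.57% to 9.02% elsewhere, and 6 bone markers summed to 26501 TPM there (TPM, a share of all transcripts corrected for their length), against 205 to 1050 TPM in the other 7 libraries. In this tissue labelled as OE, 6 olfactory neuron genes summed to between 22.9 and 69.4 TPM. Among them CNGA2, a channel subunit of these neurons, was between 0.279 and 5.01 TPM and RTP1, a receptor transporter, between 0 and 0.038 TPM, while ADCY3, an adenylyl cyclase, was between 6.25 and 15.0 TPM and ANO2, a chloride channel, between 3.18 and 50.4 TPM. FOXJ1, the regulator of multiciliated cells, was between 73.2 and 531 TPM. KRT1 and IVL, markers of cornified skin, did not exceed 0.06 TPM. The other markers measured for it were higher: KRT10 was at least 6.63 TPM in every library, and CNFN reached 12.1 TPM in control 1. TGM3 reached 1.67 TPM in androstenone 2, and all 5 markers together summed to between 7.79 and 20.8 TPM. In tissue of mixed cells, fewer basal cells and less RNA per basal cell cannot be told apart.

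Basal cell genes were well detected, and most of them varied strongly from library to library within both groups, ITGB4 being the steadiest. KRT15, TP63 and NGFR spanned 58.6-fold, 23.6-fold and 40.7-fold between the lowest and the highest library, and for all 3 both of these libraries, androstenone 2 and androstenone 3, belonged to the androstenone treatment group. No basal cell gene differed between the groups by the study's cutoff (unadjusted p below 0.05 and a log2 fold change of 1 or more in size in edgeR), which 6.42% of all genes tested passed. The values of each gene by library, the order of their levels, and the profiles they shared are given in turn.

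Levels between genes were compared in TPM, which takes the length of each transcript into account. Averaged over the 8 libraries, KRT15 came first with 116 TPM (SD 164, n = 8), followed by ITGB4 with 56.9 (SD 21.7), COL17A1 with 39.6 (SD 29.1), TP63 with 31.1 (SD 29.6), LAMB3 with 29.1 (SD 22.6), NGFR with 12.2 (SD 13.5), ITGA6 with 9.09 (SD 5.30) and DST with 5.63 TPM (SD 2.71). Some neighbours in this order did not keep their places. KRT15 exceeded ITGB4 in 4 of 8 libraries, TP63 exceeded LAMB3 in 3 of 8, and NGFR exceeded ITGA6 in 4 of 8. In contrast, ITGB4 exceeded COL17A1, COL17A1 exceeded TP63 and LAMB3 exceeded NGFR in 8 of 8 libraries, and ITGA6 exceeded DST in 7 of 8.

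KRT15 (ENSSSCG00000017444, chr12:21124605-21130247 of Sscrofa11.1 in RefSeq) encodes an acidic keratin of basal cells with low turnover. In CPM, a library's counts scaled to a common total with TMM, it was at 109, 101, 12.6 and 19.6 in control 1 to control 4 and at 32.2, 9.68, 567 and 165 in androstenone 1 to androstenone 4. Both groups thus held high and low libraries, and the lowest and the highest value of all 8 stood side by side in the androstenone treatment group. The group values were 60.7 ± 51.7 CPM (SD, n = 4) and 194 ± 258 CPM (SD, n = 4), with a log2 fold change of 1.68 (95% interval -1.05 to 4.41, adjusted p = 0.594 in edgeR's quasi-likelihood test). Without androstenone 3 the log2 fold change was 0.19. Reads of KRT15 can be shared with other acidic keratins of similar sequence, so that its count is uncertain to that extent.

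TP63 (ENSSSCG00000025592, chr13:127115990-127347082) encodes the transcription factor that sets basal cell identity in stratified and pseudostratified epithelia. It was at 174, 83.5, 22.4 and 17.9 CPM in the control libraries and at 44.9, 11.6, 274 and 143 CPM in the androstenone libraries. The order of the libraries was close to that of KRT15, with androstenone 3 highest and androstenone 2 lowest. The log2 fold change was 0.68 (95% interval -1.59 to 2.94, adjusted p = 0.792 in the same test), and it was -0.15 without androstenone 3.

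NGFR (ENSSSCG00000017548, chr12:25699410-25720355) encodes the low-affinity neurotrophin receptor, a surface marker of airway basal cells that Schwann cells also carry. It was at 37.8, 25.8, 2.49 and 6.09 CPM in the control libraries and at 11.3, 2.41, 98.0 and 41.2 CPM in the androstenone libraries. Its high and low libraries were those of KRT15, and the groups overlapped. The log2 fold change was 1.11 (95% interval -1.46 to 3.67, adjusted p = 0.691 in edgeR), and 0.04 without androstenone 3. The summed level of 7 Schwann and ensheathing glia markers was highest in control 2, at 114 TPM, against 43.6 to 68.3 TPM in the other libraries. Among these markers SOX10 did not exceed 3.61 TPM outside control 2. MBP was between 19.3 and 55.8 TPM with control 3 highest, and PMP22 between 1.84 and 46.6 TPM with control 2 highest.

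**Figure D1:**
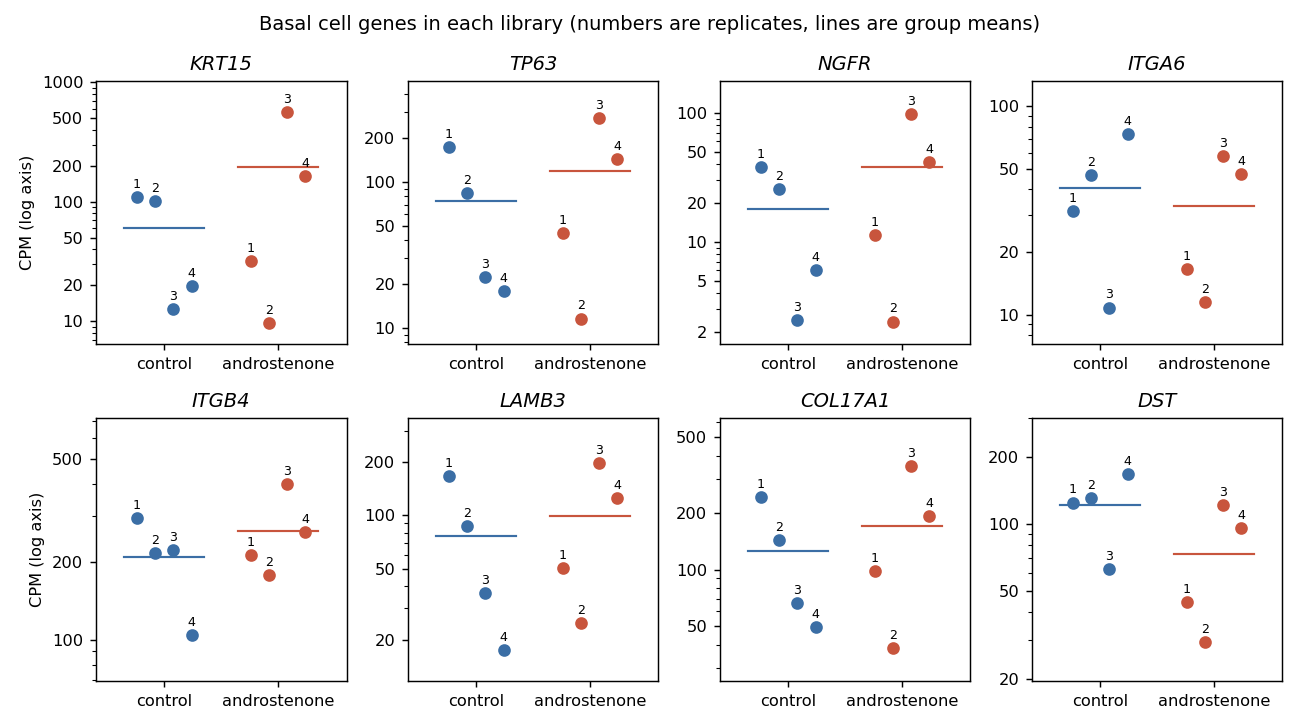
CPM on a log axis for the 8 basal cell genes in control (blue) and androstenone (red) libraries, with replicate numbers beside the points and lines at the group means. For KRT15, TP63, NGFR, LAMB3 and COL17A1 the highest 4 libraries are control 1, control 2, androstenone 3 and androstenone 4, and in each panel the groups overlap.

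Hemidesmosomes anchor basal cells through the integrin α6β4, which binds laminin outside the cell and is tied inside to keratin filaments. ITGB4 (ENSSSCG00000017204, chr12:5651292-5685601), the integrin chain that carries the link to the filaments, was at 296, 216, 221 and 104 CPM in the control libraries and at 213, 177, 400 and 260 CPM in the androstenone libraries. It spanned 3.85-fold between control 4 and androstenone 3. The log2 fold change was 0.33 (95% interval -0.50 to 1.16, adjusted p = 0.716 in edgeR's quasi-likelihood test).

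LAMB3 (ENSSSCG00000015618, chr9:133298009-133351162) encodes the β chain of the laminin that this integrin binds. It was at 167, 87.2, 36.6 and 17.6 CPM in the control libraries and at 50.8, 24.8, 197 and 125 CPM in the androstenone libraries. COL17A1 (ENSSSCG00000010607, chr14:114959404-115007734), a collagen that spans the cell membrane in hemidesmosomes, was at 242, 144, 66.2 and 49.7 CPM in the control libraries and at 97.7, 38.6, 353 and 192 CPM in the androstenone libraries. The 2 genes put the libraries in nearly the same order, and for both the groups overlapped. The log2 fold changes were 0.37 (95% interval -1.43 to 2.17) for LAMB3 and 0.44 (95% interval -1.17 to 2.06) for COL17A1, with adjusted p of 0.862 and 0.808 in edgeR. Without androstenone 3 they turned to -0.20 in both.

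ITGA6 (ENSSSCG00000015955, chr15:78504108-78591779), the partner chain of ITGB4 that endothelial cells also express, had another profile. It was at 31.4, 46.7, 10.8 and 73.5 CPM in the control libraries and at 16.5, 11.5, 57.9 and 47.3 CPM in the androstenone libraries. Control 4, low for the genes above, was the highest library for ITGA6. DST (ENSSSCG00000001499, chr7:28812423-29300149), which encodes a plakin of hemidesmosomes and of other cell types such as neurons and muscle, was at 125, 130, 62.8 and 167 CPM in the control libraries and at 44.5, 29.4, 121 and 95.9 CPM in the androstenone libraries, again with control 4 highest. In TPM, however, DST was at 8.42 in control 2 and 8.34 in control 4. The log2 fold changes were -0.29 (95% interval -1.79 to 1.22, adjusted p = 0.874) for ITGA6 and -0.74 (95% interval -1.82 to 0.35, adjusted p = 0.557) for DST in edgeR's quasi-likelihood test. Without control 4 the value of ITGA6 turned to 0.17.

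Of the 8 basal cell genes, 6 had a log2 fold change above 0 and 2 below 0, and 0 of 8 passed the study's cutoff in edgeR's quasi-likelihood test, beside 6.42% of all genes tested (2.04% upregulated and 4.38% downregulated). At an unadjusted p below 0.05 regardless of fold there were also 0 of 8, beside 11.3% of all genes. This held in DESeq2, the exact test, the likelihood ratio test and limma voom, and in each fit that left out 1 library. The smallest unadjusted p of a basal cell gene in any of these was 0.0523, for DST without androstenone 3. The median log2 fold change was 0.41 over the 8 genes and -0.02 over all genes tested. Without androstenone 3 the median over the 8 genes turned to -0.18, with 3 genes above 0 and 5 below, and without any other single library it lay between 0.17 (control 4 left out) and 1.02 (control 1 left out). The groups overlapped in CPM for 8 of 8, while they did not overlap for 6.53% of all genes. The intervals above include changes of 2-fold in either direction for every basal cell gene except ITGB4 and DST, so that changes of that size were not detectable against this spread. For ITGB4 the interval reaches 1.16 upwards and -0.50 downwards, and for DST 0.35 upwards and -1.82 downwards. Each library was taken as a replicate, so that all these intervals are too narrow, and their bounds do not exclude a 2-fold change.

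**Figure D2:**
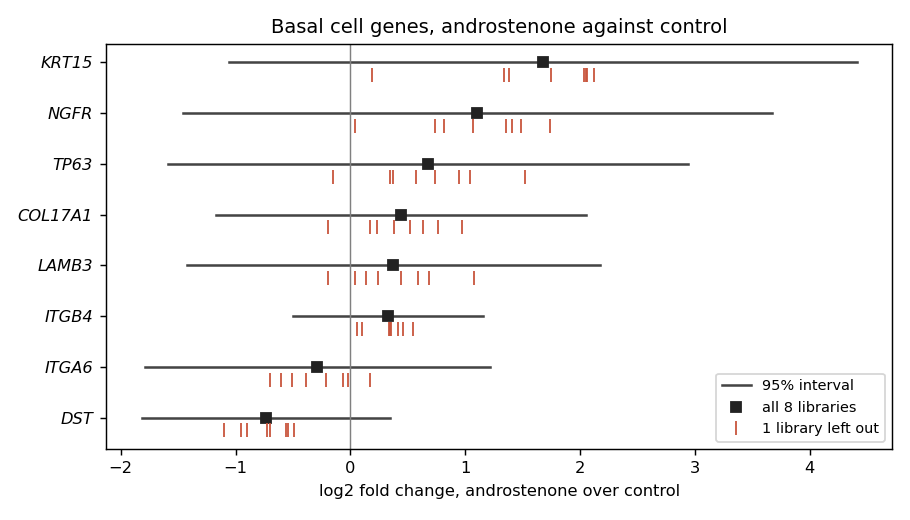
Log2 fold change of androstenone over control for each basal cell gene (squares), with its 95% interval from edgeR's quasi-likelihood fit (lines) and the values with 1 library left out (red ticks). Every interval includes 0, and KRT15 ranges from 0.19 to 2.12 with 1 library left out.

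The basal cell genes differed in how much they varied between libraries. The SD of log2 CPM over the 8 libraries was 2.04 for KRT15, 1.97 for NGFR and 1.68 for TP63, which is more than in 98.1%, 97.7% and 95.1% of the 18347 genes that passed edgeR's expression filter. It was 1.30 for LAMB3, 1.14 for COL17A1, 1.08 for ITGA6, 0.87 for DST and 0.57 for ITGB4, whose SD exceeded that of 56.2% of genes. The median over all these genes was 0.50. Within groups alone the SD was 2.15 for KRT15, and exceeded that of 98.8% of genes. The split by treatment accounted for 4.99% of the variance of KRT15, 2.07% of TP63, 3.85% of NGFR, 1.84% of COL17A1 and 28.4% of DST, where the median gene had 12.8%. These figures describe the libraries and carry no test.

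For 5 basal cell genes, KRT15, TP63, NGFR, LAMB3 and COL17A1, the highest 4 libraries were the same: control 1, control 2, androstenone 3 and androstenone 4. Likeness of 2 profiles was measured as the root mean square (RMS) difference of log2 CPM after each gene was centred on its own mean, where 0 means the same profile in the same amplitude. KRT15 and NGFR were each other's closest basal cell gene (RMS 0.34), as were LAMB3 and COL17A1 (RMS 0.28) and ITGA6 and DST (RMS 0.48). TP63 was closest to LAMB3 (RMS 0.47) and ITGB4 to COL17A1 (RMS 0.68). ITGA6 and its partner ITGB4 differed by 1.14, which is more than the median of 1.10 between ITGA6 and all genes. KRT15 and ITGB4 differed by 1.55.

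The genes nearest to KRT15 among all 18346 others were WNT10A, a Wnt ligand (RMS 0.21), NGFR (0.34), GRIK3, a kainate receptor subunit (0.50), IGFBP2, which binds insulin-like growth factors (0.52), and ENSSSCG00000003521 (0.55). WNT10A was at 3.08, 3.00, 0.449 and 0.632 CPM in the control libraries and at 1.27, 0.236, 14.5 and 5.54 CPM in the androstenone libraries. IGFBP2 spanned 90.5-fold, up to 908 CPM in androstenone 3. Nearest to TP63 were ENSSSCG00000062487 (RMS 0.23), COL23A1, a transmembrane collagen (0.27), ENSSSCG00000017448 (0.30), ENSSSCG00000003521 (0.32) and PKP1, a plakophilin of desmosomes (0.32). ENSSSCG00000062487, to which the name table gives no symbol, spanned 56.6 CPM in androstenone 2 to 2065 CPM in androstenone 3. All these values share the depth and the make-up of the same 8 libraries.

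**Figure D3:**
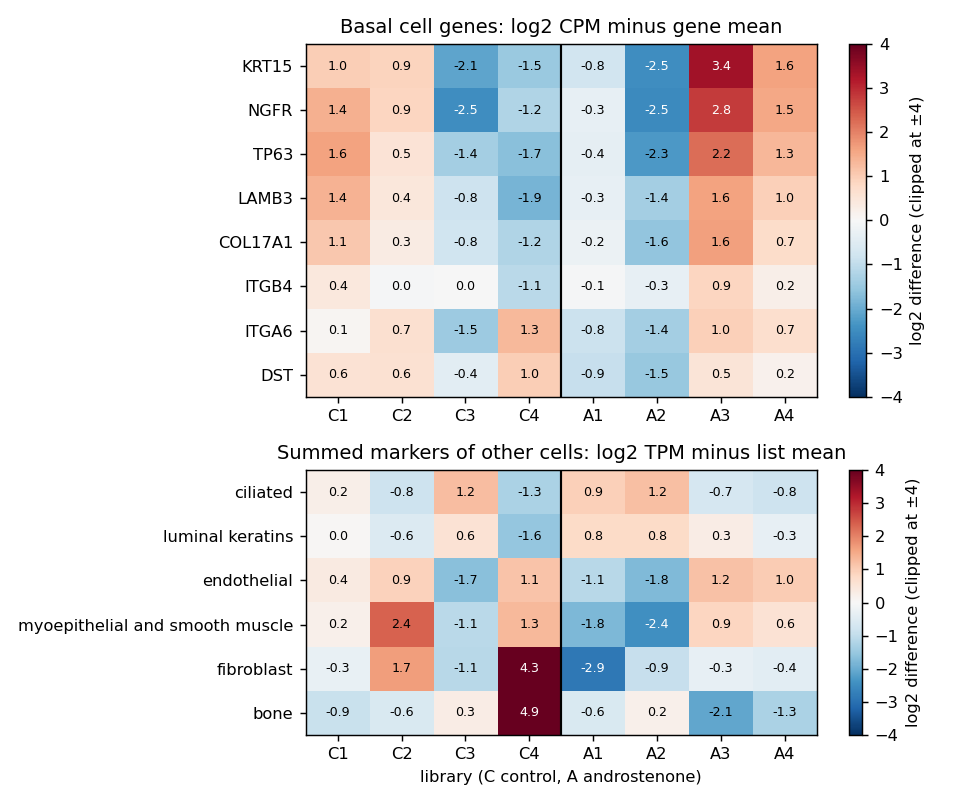
Log2 difference of each library from the gene's mean (top, CPM) or from the list's mean (bottom, summed TPM of markers of other cells), for control (C) and androstenone (A) libraries. KRT15, NGFR, TP63, LAMB3 and COL17A1 are above their mean in C1, C2, A3 and A4 and below it in the rest. In CPM, ITGA6 and DST are highest in C4, while in TPM DST is at 8.42 in C2 and 8.34 in C4. The bone and fibroblast markers also peak in C4, where the endothelial markers are high too. Over all libraries, bone is the furthest of 12 marker lists from every basal cell gene, ITGA6 and DST included (RMS 2.13 and 2.07). The RMS difference grows with amplitude, and the bone sum runs from 205 to 26501 TPM, so that this rank cannot decide on a shared peak. Fibroblast ranks 7 for ITGA6 and 10 for DST.

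Markers of other cells moved over the same libraries. The summed level of 7 ciliated cell markers was 1092 TPM in control 3, 901 TPM in androstenone 1 and 1085 TPM in androstenone 2, where KRT15 was at 8.56 to 27.1 TPM. It was between 193 and 552 TPM in the other 5 libraries. There KRT15 was at 111 TPM in control 1, 104 in control 2, 498 in androstenone 3 and 151 in androstenone 4. Control 4 was low in both, with 193 TPM of ciliated markers and 15.4 TPM of KRT15. The ciliated sum ranged from 193 to 1092 TPM in the control group and from 263 to 1085 TPM in the androstenone treatment group. All 7 markers were above 0 in every library. The 6 endothelial markers summed to 99.8, 147, 24.5 and 172 TPM in control 1 to control 4 and to 36.2, 22.8, 175 and 156 TPM in androstenone 1 to androstenone 4. On centred log2 TPM, ITGA6 lay at an RMS difference of 0.24 from the endothelial sum, the closest of 12 marker lists, against 1.94 from the ciliated sum. The endothelial sum was also the closest list to KRT15 and NGFR, at larger differences of 1.34 and 1.25, and for TP63 it came next, at 1.29, after the olfactory neuron list at 1.25. ITGB4 was closest to the list of cornified skin markers (0.41) and lay at 1.30 from the endothelial sum. The cornified skin list also ranked 2 for LAMB3 (1.03) and COL17A1 (0.92). DST was closest to the list of olfactory neuron genes (0.44) and next to the endothelial sum (0.65). The olfactory neuron list was also the closest to LAMB3 (1.02) and COL17A1 (0.81), and came next for ITGA6 (0.48). In that list ANO2 ranged from 3.18 to 50.4 TPM and held 47.9 of the 62.9 TPM in androstenone 3. CNGA2 went the other way, at 0.524 TPM in androstenone 3 against 4.95 and 5.01 TPM in androstenone 1 and 2. ADCY3 was also lower in androstenone 3 than there, while CNGA4 and GNAL went with ANO2. The 6 myoepithelial and smooth muscle markers, of interest because myoepithelial cells of glands share basal keratins and TP63, were at 96.0 to 1048 TPM in the control group and 37.2 to 366 TPM in the androstenone treatment group, with control 2 highest. The part of these cells in the profiles above was not tested.

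Partners within the hemidesmosome did not keep a fixed ratio. The TPM ratio of ITGA6 to ITGB4 was 0.111, 0.226, 0.0514 and 0.741 in control 1 to 4 and 0.0811, 0.0676, 0.152 and 0.191 in androstenone 1 to 4, a 14.4-fold range in which control 4 stood apart. The ratio of LAMB3 to ITGB4 was 0.764, 0.546, 0.224 and 0.229 in control 1 to 4 and 0.323, 0.190, 0.666 and 0.650 in androstenone 1 to 4. That of COL17A1 to ITGB4 was 0.905, 0.738, 0.332 and 0.530 in control 1 to 4 and 0.508, 0.241, 0.977 and 0.815 in androstenone 1 to 4. The means of the groups were close for both, with 0.441 ± 0.263 and 0.457 ± 0.238 (SD, n = 4 each) for LAMB3 and 0.626 ± 0.249 and 0.635 ± 0.327 (SD, n = 4 each) for COL17A1.

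LAMA3 encodes the α chain that joins LAMB3 in the laminin of hemidesmosomes. It was at 30.9, 24.7, 33.6 and 7.33 TPM in control 1 to 4 and at 14.0, 11.5, 31.3 and 22.7 TPM in androstenone 1 to 4, with control 3 highest, where LAMB3 was at 12.8 TPM. The ratio of LAMB3 to LAMA3, chosen after the values were seen, was 1.93, 1.27, 0.382 and 0.665 in control 1 to 4 and 1.08, 0.676, 1.94 and 1.77 in androstenone 1 to 4, a 5.10-fold range. LAMA3 was the more abundant chain in control 3, control 4 and androstenone 2, and LAMB3 in the other libraries. In edgeR the log2 fold change of LAMA3 was -0.12 ± 0.44 (SE; adjusted p = 0.928), which did not pass the test.

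**Figure D4:**
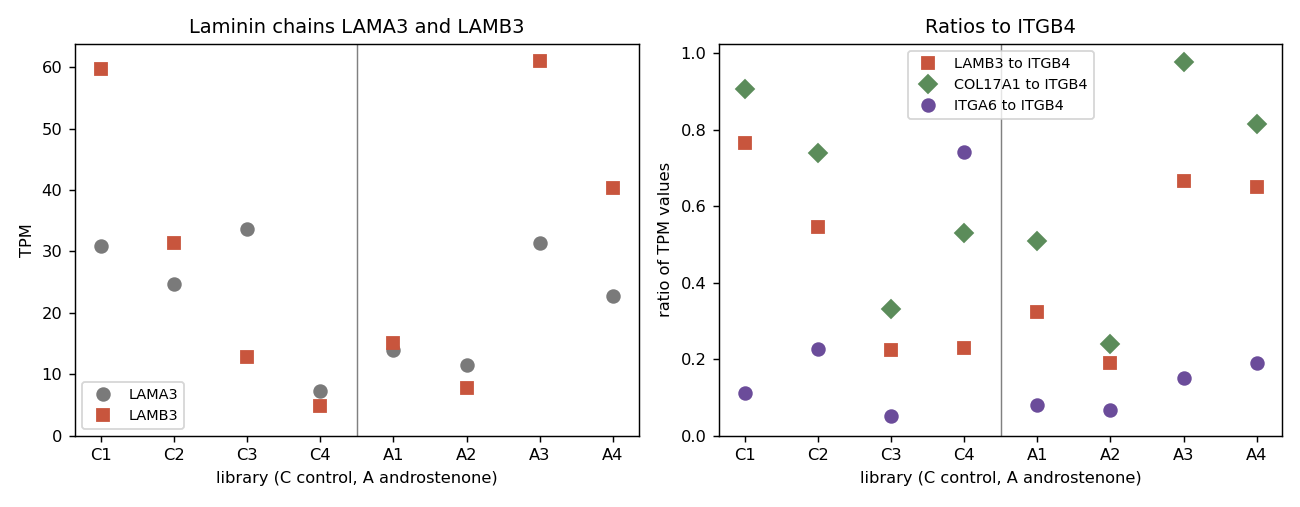
Left, TPM of the laminin chains LAMA3 (circles) and LAMB3 (squares) in each control (C) and androstenone (A) library. Right, TPM ratios of LAMB3, COL17A1 and ITGA6 to ITGB4. LAMA3 exceeds LAMB3 in C3, C4 and A2, and the ratio of ITGA6 to ITGB4 is 0.741 in C4 and at most 0.226 elsewhere.

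Beyond these 8 genes, 21 further genes of hemidesmosomes and the epithelial basement membrane were measured of 22 listed (COL7A1 matched no identifier). In edgeR's quasi-likelihood test 0 of 21 passed the study's cutoff, beside 6.42% of all genes, and 0 had an unadjusted p below 0.05. DESeq2, limma voom and the other 2 edgeR tests also gave 0 by either criterion. Their median log2 fold change was -0.27. The most abundant were COL4A1, a chain of the collagen network of basement membranes, between 11.6 and 340 TPM, and ITGB1, the common β integrin chain, between 76.1 and 248 TPM. Their log2 fold changes were -0.38 and -0.31, and both were highest in control 4. Without control 3, 1 gene passed, HSPG2, the basement membrane proteoglycan perlecan (log2 fold change -1.81).

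Among other genes known from basal cells, 29 of 32 listed were measured (KRT6A, KRT16 and SOX2 matched no identifier). At the study's cutoff 4 were higher and 2 lower in the androstenone treatment group, which is 20.7% of the 29 beside 6.42% of all genes tested. After Benjamini-Hochberg adjustment, regardless of fold, 0 of the 29 passed in edgeR's quasi-likelihood test (smallest adjusted p = 0.378). DESeq2 gave 3, the likelihood ratio test 1, and the exact test and limma voom 0. Among the 3, only DSG3 (adjusted p = 0.0049 in DESeq2) and TNC (0.021) were also past the fold cutoff. The 4 upregulated genes were DSG3, a desmosomal cadherin, CDH3, P-cadherin, S100A2, a calcium-binding protein, and TRIM29. The 2 downregulated genes were TNC, the matrix protein tenascin C, and CCN1, a matricellular protein. The count at the study's cutoff was 2 without control 2, and 3 without control 4 or without androstenone 3. With limma voom 7 were higher and 0 lower, so that neither TNC nor CCN1 passed there. With 1 library left out in turn, DSG3 and TNC passed in 8 of 8 fits, TRIM29 in 5, S100A2 in 4, CDH3 in 3 and CCN1 in 2. S100A2 no longer passed without control 2, control 4, androstenone 1 or androstenone 2, and CCN1 passed only with control 3 or androstenone 4 left out. The log2 fold change of TNC went from -3.20 to -1.44 without control 4.

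DSG3 was low throughout, between 0.153 and 0.754 TPM. It was at 0.616, 0.535, 1.13 and 0.767 CPM in the control libraries and at 2.39, 3.02, 1.87 and 1.74 CPM in the androstenone libraries, and the groups did not overlap, which was so for 6.53% of all genes. On the log2 scale the difference was 1.53 ± 0.34 (standard error), with an adjusted p of 0.378 in edgeR. S100A2 was abundant, at 79.5, 30.0, 129 and 38.5 CPM in the control libraries and at 277, 368, 117 and 90.9 CPM in the androstenone libraries, a log2 difference of 1.62 ± 0.60 (standard error) with an adjusted p of 0.416 in edgeR. Its 3 highest libraries, androstenone 2, androstenone 1 and control 3, were those with the most ciliated cell markers and among the 4 lowest for KRT15. CDH3 went from 13.6 ± 8.79 to 31.2 ± 15.4 CPM (SD, n = 4 each) and TRIM29 from 107 ± 53.1 to 214 ± 71.2 CPM (SD, n = 4 each), with log2 fold changes of 1.22 and 1.00. TNC was at 109, 600, 213 and 3222 CPM in the control libraries, where control 4 also had the most bone markers, and at 73.1, 77.9, 169 and 132 CPM in the androstenone libraries. CCN1 was at 22.9 ± 17.0 and 7.08 ± 4.57 CPM (SD, n = 4 each). The part of the other cells in these differences was not tested.

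AQP3, a water and glycerol channel of basal cells, was the most abundant gene of that list, between 127 TPM in control 4 and 1310 TPM in control 1, with a log2 fold change of 0.23. Of this list, the genes nearest to TP63 in profile were JAG2, a Notch ligand (RMS 0.56), DLK2, a membrane protein of the Notch ligand type (0.66), and BCAM, a laminin receptor (0.73). DLK2 was at 106, 60.2, 8.41 and 3.55 CPM in the control libraries and at 24.9, 2.92, 178 and 94.4 CPM in the androstenone libraries. JAG2, DLK2 and BCAM were named after their values were seen. Other genes of the list lay further from TP63 than its median difference of 1.64 from all genes. Of those past the cutoff, TNC (2.59), S100A2 (2.21) and DSG3 (1.94) did so, while CDH3 (1.02), TRIM29 (1.33) and CCN1 (1.56) lay nearer.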

How the data were processed

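RNA-seq measured the OE of sows, 4 libraries per group. The authors cleaned reads with fastp 0.23.1, quantified them with Kallisto 0.48.0 on Sscrofa11.1 transcripts of Ensembl release 108, and deposited estimated counts and TPM values per gene. The sources used here do not state how transcript values became gene values. Estimated counts were rounded, genes with at least 1 count were kept, and groups were compared with edgeR 4.0.16 (TMM, quasi-likelihood test, condition only, R 4.3.3). The edgeR cutoff follows the study. The 95% intervals use the standard error of that fit and its total degrees of freedom (8.50), residual and prior together. Deposited counts summed to 4177968 in control 1 and at least 81579983 elsewhere, so that control 1 carries the widest counting error. The read totals in the supplement of the study do not set this library apart, and the sources used here do not say why its counts are low. No pair of libraries agreed within sampling noise (chi-square per degree of freedom at least 35.4). Names came from a table that matched 15527 identifiers, and coordinates from RefSeq on Sscrofa11.1. The basal cell genes, the gene lists and the alternatives were chosen with earlier results of these data known. Named genes are all basal cell genes, genes of the 2 further lists that passed the cutoff or were the 2 most abundant, and the 5 nearest profiles to KRT15 and TP63 (KRT15 stood in for KRT5, and ratios with KRT5 were not computed). LAMA3, HSPG2, JAG2, DLK2 and BCAM, and single markers of other cells, were named outside this rule after their values were seen. The olfactory neuron list was added after the data were seen. DESeq2 1.42.0, limma 3.58.1 and the other alternatives were tested, and the edgeR script was checked on simulated data.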

Additional observations from a re-analysis of the deposited data

How the results depend on the processing

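The count of 0 basal cell genes past the cutoff was the same in all 22 alternatives, of which 1, leaving out control 1 and control 4 together, was chosen after seeing the data. Of the 176 log2 fold changes of single basal cell genes under these alternatives, 171 kept their direction, including all under RLE normalization and library size only. The exceptions were ITGA6 without control 1 and control 4 together (0.17) and 4 with 1 library left out. With 1 library left out, the ranges were -0.20 to 0.97 for COL17A1, -0.20 to 1.08 for LAMB3, -0.15 to 1.52 for TP63 and -0.70 to 0.17 for ITGA6. The count over all genes, 1368, went to 718 with limma on log2(TPM + 0.1), 319 on log2(TPM + 1), 881 without control 1 and control 4 together, and between 867 (without androstenone 1) and 2414 (without control 3) with 1 library left out. For the further basal cell genes, 6 calls became 3 with library size only, 3 on log2(TPM + 0.1) and 2 on log2(TPM + 1), and 2 to 7 with 1 library left out. For the adhesion genes the range was 0 to 1. Replicate numbers gave no pairing: the deviations of same-numbered libraries correlated at -0.04, -0.50, -0.60 and 0.17, and control 3 correlated best with androstenone 2 (0.66). With the replicate number as a block, 583 genes, 2 further basal cell genes (DSG3 and TRIM29, both higher) and 0 of the 8 basal cell genes passed. With 4 libraries of 2 animals per group and SDs of log2 CPM up to 2.15 within groups, the spread between libraries limits these comparisons, and no fit at equal depth was made. Leaving out control 1, the library with the fewest counts, gave the highest values of TP63 (1.52) and LAMB3 (1.08). The cause of the changes was not tested.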
